A study of Mus musculus with 16 samples.

Results

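The regulators of oxidative metabolism described here are the transcriptional coactivators PGC-1α and PGC-1β (*Ppargc1a*, *Ppargc1b*), the estrogen-related receptors (*Esrra*, *Esrrb*, *Esrrg*), the fatty acid-sensing receptors PPARα and PPARδ (*Ppara*, *Ppard*), and the mitochondrial transcription regulators *Tfam* and *Nrf1*. They were taken by gene name from the count tables, and all 9 were found among 24421 genes. Poly(A) RNA had been sequenced from the gastrocnemius (Gas), a mostly fast-twitch muscle, and the soleus (Sol), a muscle rich in slow-twitch fibers, of C57BL/6 male mice. WT mice carried the floxed *Lsd1* gene without a Cre recombinase (3 libraries per muscle), and LSD1-mKO mice carried *Lsd1* flox/flox with a tamoxifen-inducible Cre driven by the human *ACTA1* promoter (5 libraries per muscle). This promoter acts in differentiating and differentiated muscle cells, so blood, vessel and connective tissue cells keep the gene. Mice of both genotypes were treated from 8 weeks of age with tamoxifen at 75 mg/kg for 5 days, and from the fourth of these days with dexamethasone, a synthetic glucocorticoid, at 1 mg/kg for 7 days. No muscle without dexamethasone or without tamoxifen was analysed here.

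PGC-1α and PGC-1β do not bind DNA themselves. They dock on nuclear receptors such as the ERRs and PPARs and recruit the machinery that turns on genes of mitochondrial respiration and fatty acid oxidation. Nuclear respiratory factor 1, the product of *Nrf1*, drives nuclear genes of the respiratory chain as well as *Tfam*, whose product packages mitochondrial DNA and starts its transcription. In skeletal muscle these factors are best known for the oxidative character of slow-twitch fibers and for the response to endurance exercise. LSD1, encoded by *Lsd1* (*Kdm1a* in the tables), is a histone demethylase.

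Promoter sequences of 8 of the 9 regulators, with 13 start sites, were found in the RefSeq table for GRCm38.p6. The promoters differed widely in CpG dinucleotides, which are shown in capitals in the stretches upstream of a coactivator, a receptor and a respiratory factor whose muscle patterns differed in the results that follow. They read 5′ to 3′ on the strand of the gene and hold no base of an annotated exon of that gene in GENCODE M21. The coordinates are chr5:51567727-51567975 (minus strand) for *Ppargc1a*, chr12:86360867-86361116 (plus strand) for *Esrrb* and chr6:30047738-30047987 (plus strand) for *Nrf1*.
Ppargc1a: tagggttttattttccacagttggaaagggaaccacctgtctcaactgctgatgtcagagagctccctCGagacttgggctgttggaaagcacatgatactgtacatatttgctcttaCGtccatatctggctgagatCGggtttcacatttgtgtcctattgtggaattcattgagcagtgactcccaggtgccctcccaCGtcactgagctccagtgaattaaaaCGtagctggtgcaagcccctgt
Esrrb: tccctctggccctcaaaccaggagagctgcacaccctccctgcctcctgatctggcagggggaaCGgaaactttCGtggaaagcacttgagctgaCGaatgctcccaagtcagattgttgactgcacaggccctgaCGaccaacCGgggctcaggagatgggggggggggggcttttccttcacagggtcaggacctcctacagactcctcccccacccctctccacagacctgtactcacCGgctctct
Nrf1: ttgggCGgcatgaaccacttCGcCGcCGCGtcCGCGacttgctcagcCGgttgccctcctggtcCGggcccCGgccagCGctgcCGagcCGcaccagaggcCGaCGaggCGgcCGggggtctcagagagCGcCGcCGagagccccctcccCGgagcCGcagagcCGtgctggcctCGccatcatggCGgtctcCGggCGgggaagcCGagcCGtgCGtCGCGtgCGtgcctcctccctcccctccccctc
The *Ppargc1a* stretch held 5 CpG, the *Esrrb* stretch 6 and the *Nrf1* stretch 33, against a median of 6 in the 250 bases before 32851 promoter starts. In the same window *Ppara* held 27 CpG, *Esrra* and *Ppard* 22 each and *Tfam* 19, while the 4 *Esrrg* starts held from 9 to 22, the second *Esrrb* start 3 and the second *Nrf1* start 2. Unlike the printed stretches, some of these windows hold annotated exon bases of their gene. These were 236 of 250 for *Tfam*, 150 for *Ppara*, 109 for the first *Esrrg* start, 54 for *Ppard* and 5 for *Esrra*. Both the CpG-rich *Ppara* and *Esrrb*, which is near the median, were higher in Sol in both genotypes, whereas *Nrf1*, the richest in CpG, did not differ past the threshold between the muscles.

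Both strands of the windows from 250 bases before to 50 bases after each start were searched for 4 motifs, TCAAGGTCA (bound by ERRs), GCGCATGCG (NRF1), CCGGAAGT (the ETS family, to which GABP belongs) and TGACGTCA (the cAMP response element). A single *Ppara* window held the NRF1 motif and the *Tfam* window held the ETS motif, and none of the regulators' windows held either of the other motifs. The matches, in capitals, lie at chr15:85735735-85735764 (plus strand) and chr10:71238073-71238102 (minus strand) in the lines that follow. The *Ppara* letters match on both strands with an overlap. Both sites lie inside the GENCODE M21 bounds of their gene. Of the 250 bases before the RefSeq start, 150 of *Ppara* and 236 of *Tfam* are annotated exon bases of that gene.
Ppara: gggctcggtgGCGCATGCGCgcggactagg
Tfam: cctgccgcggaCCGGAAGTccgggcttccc
Of all promoter windows, 1.75% held the NRF1 motif, 3.89% the ETS motif, 0.423% the ERR motif and 1.79% the cAMP element. These are letter matches and say nothing of whether a factor was bound.

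Between 10130415 and 24576377 reads were assigned to genes per library. Levels are given as CPM, the count of a gene scaled to the library total with TMM factors over all 16 libraries, so that one scale serves both muscles. Every regulator was detected in every library, and the lowest count was 30 reads, for *Esrrb* in WT Gas replicate 3. *Kdm1a*, the check of the genotype labels, lay between 33.4 and 48.2 CPM in the WT libraries and between 9.13 and 17.7 CPM in the LSD1-mKO libraries of both muscles, without overlap. The tissue labels were checked with the slow fiber markers *Myh7*, *Tnni1*, *Tnnt1*, *Tnnc1* and *Atp2a2*, whose summed level was from 15488 to 22572 CPM in Sol and from 548 to 1240 CPM in Gas. Ribosomal protein genes stood high within their group in WT Gas replicate 3 (mean 8.39 log2 CPM), LSD1-mKO Gas replicate 5 (7.67) and WT Sol replicate 2 (7.07), while the other libraries lay between 6.24 and 7.23. For the regulators, calls that change without these 3 libraries are given with both values. Gas and Sol were deposited as separate count tables with separate series of library names, so muscle and any difference in library handling cannot be told apart.

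**Figure D1:**
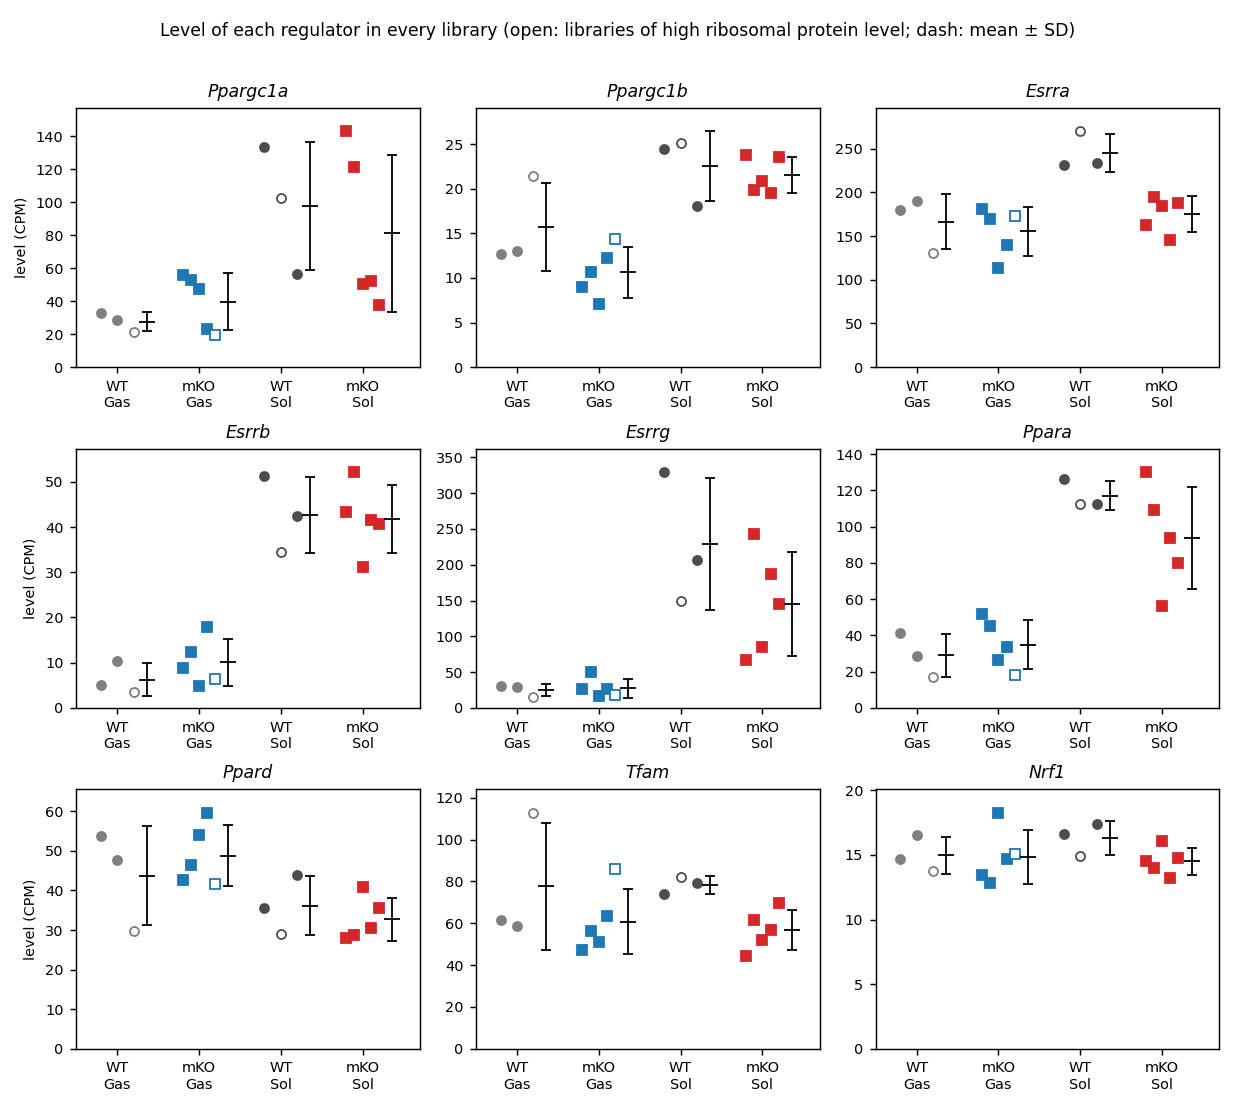
Level in CPM (TMM over 16 libraries) of the 9 regulators in each library, by group. Circles are WT and squares LSD1-mKO (mKO) libraries, open symbols are the 3 libraries of high ribosomal protein level, and the dash with bars is the mean ± SD of the group (n = 3 for WT, n = 5 for LSD1-mKO). *Esrrb*, *Esrrg* and *Ppara* lie higher in every Sol library than in any Gas library, whereas *Tfam* and *Nrf1* overlap between muscles.

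Levels between genes were compared per length, and the most abundant regulator in Gas, per length, was *Esrra*, with 37.9 ± 7.25 CPM per kb of exon in WT (SD, n = 3) and 35.4 ± 6.49 in LSD1-mKO (SD, n = 5). *Tfam* was next with 17.5 ± 6.86 and 13.7 ± 3.47 CPM per kb, without overlap with *Esrra* in either genotype. The other 7 regulators had means between 1.03 and 9.11 CPM per kb in Gas, with *Nrf1* and *Esrrb* at the bottom. In Sol, *Esrra* was again at the top with 55.9 ± 4.91 CPM per kb in WT and 39.9 ± 4.64 in LSD1-mKO, but *Esrrg* (36.8 ± 14.8 and 23.4 ± 11.7) and *Ppara* (30.5 ± 2.10 and 24.5 ± 7.33) came next, ahead of *Tfam* (17.7 ± 0.971 and 12.8 ± 2.14). In both Sol groups the libraries of *Esrrg* overlapped with those of *Esrra* and of *Ppara*, so the order of these neighbors is within their spread. In LSD1-mKO Sol *Esrrg* and *Ppara* also overlapped with *Tfam*. *Nrf1* was last in Sol, with 1.59 ± 0.126 and 1.41 ± 0.102 CPM per kb, below every library of each of the other regulators. Lengths are those of all GENCODE M21 exons of a gene, whereas reads were counted on UCSC gene models. Ranks between genes and family shares per length are therefore approximate.

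Of the 9 regulators, 4 were higher in Sol than in Gas in WT mice and none was lower (edgeR quasi-likelihood test, Benjamini-Hochberg adjusted p under 0.05 over all genes). The background was 8.75% of 13749 genes tested called higher and 8.25% called lower. In LSD1-mKO mice 4 were higher in Sol and 1 was lower, against 12.9% and 11.6% of all genes. *Esrrg*, *Esrrb* and *Ppara* were called in both genotypes, *Ppargc1a* in WT, and *Ppargc1b* and, in the opposite direction, *Ppard* in LSD1-mKO. Both comparisons come from the same fit but share no library. For 5 of the 9 regulators in each genotype the Sol and Gas libraries did not overlap, against 30.3% of all genes in WT and 20.9% in LSD1-mKO. In whole muscle, more cells of a type and more RNA per cell cannot be told apart, and this holds for every level given here.

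Among the coactivators, *Ppargc1a* (ENSMUSG00000029167, chromosome 5, 51454250 to 51567726, minus strand, GRCm38) had 32.7, 28.7 and 21.2 CPM in WT Gas replicates 1, 2 and 3, and 55.7, 53.1, 47.1, 23.1 and 19.7 CPM in LSD1-mKO Gas replicates 1 to 5. In Sol it had 134, 103 and 56.3 CPM in WT and 143, 122, 50.3, 52.5 and 37.7 CPM in LSD1-mKO. The WT Sol libraries all lay above the WT Gas libraries, while in LSD1-mKO the Sol libraries fell into a high pair and 3 lower ones that overlapped with Gas. In WT the log2 fold change of Sol over Gas was 1.82 (SE 0.504, adjusted p = 0.0204), or 3.53-fold. This call was lost without WT Gas replicate 3 (1.64, adjusted p = 0.0763) and without WT Sol replicate 1 (1.53, adjusted p = 0.104), and also without the 3 libraries of high ribosomal protein level together (1.61, adjusted p = 0.0737). In LSD1-mKO it was 1.03 (SE 0.381, adjusted p = 0.0587), which missed the threshold. When each numbered pair of Gas and Sol libraries formed a block, the LSD1-mKO value was 0.96 (SE 0.188, adjusted p = 0.00395), and without LSD1-mKO Sol replicate 5 it was 1.21 (adjusted p = 0.0297). The count covers the whole gene, so the start sites and splice forms of *Ppargc1a* that differ between muscle states were not resolved.

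*Ppargc1b* (chromosome 18, minus strand) was the scarcer coactivator in read counts. It had 12.7, 13.1 and 21.4 CPM in WT Gas and 8.94, 10.7, 7.03, 12.2 and 14.4 CPM in LSD1-mKO Gas. In Sol it had 24.4, 25.2 and 18.1 CPM in WT and 23.8, 19.9, 20.9, 19.6 and 23.6 CPM in LSD1-mKO. All LSD1-mKO Sol libraries were above all LSD1-mKO Gas libraries, whereas in WT the Gas library with the high ribosomal protein level reached into the Sol range. The rise from Gas to Sol was 1.02 on the log2 scale in LSD1-mKO (SE 0.193, adjusted p = 0.000991), or 2.02-fold. In WT the value was 0.53 (SE 0.247, adjusted p = 0.151), and without WT Gas replicate 3 it was 0.78 (SE 0.243, adjusted p = 0.0450). Without the 3 libraries of high ribosomal protein level it was 0.70 (SE 0.221, adjusted p = 0.0358). Per length, *Ppargc1a* made up 51.8% ± 12.6 of the PGC-1 transcripts in WT Gas, 66.6% ± 16.1 in LSD1-mKO Gas, 71.1% ± 5.75 in WT Sol and 65.5% ± 12.8 in LSD1-mKO Sol (SD, n = 3 or 5).

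The estrogen-related receptors bind DNA without a known natural hormone and depend on PGC-1 coactivators for much of their activity. *Esrrg* (ENSMUSG00000026610, chromosome 1, 187608791 to 188214885, plus strand), which encodes ERRγ, differed most between the muscles of all 9 regulators in both genotypes. It had 30.5, 29.8 and 14.5 CPM in WT Gas and 25.8, 50.0, 16.6, 26.8 and 17.6 CPM in LSD1-mKO Gas, against 329, 149 and 207 CPM in WT Sol and 67.3, 243, 84.6, 187 and 145 CPM in LSD1-mKO Sol. Every Sol library exceeded every Gas library, and the Sol libraries of either genotype spread widely among themselves, with a coefficient of variation of 40.3% in WT and 49.9% in LSD1-mKO. The log2 fold change of Sol over Gas was 3.19 in WT (SE 0.512, adjusted p = 0.000450), or 9.12-fold. In LSD1-mKO it was 2.41 (SE 0.384, adjusted p = 0.000223), or 5.31-fold.

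*Esrrb* (ENSMUSG00000021255, chromosome 12, 86361117 to 86521628, plus strand), the gene of ERRβ, was the scarcest ERR and followed the same order. In Gas it had 4.97, 10.3 and 3.40 CPM in WT and 8.89, 12.5, 4.83, 17.8 and 6.37 CPM in LSD1-mKO. In Sol it had 51.3, 34.4 and 42.5 CPM in WT and 43.2, 52.2, 31.2, 41.6 and 40.8 CPM in LSD1-mKO. The lowest Sol library of either genotype was above the highest Gas library. The difference was 2.75 on the log2 scale in WT (SE 0.425, adjusted p = 0.000324) and 2.06 in LSD1-mKO (SE 0.318, adjusted p = 0.000167).

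*Esrra* (ENSMUSG00000024955, chromosome 19, 6910977 to 6921813, minus strand), which encodes ERRα, a receptor that is itself induced by PGC-1α, behaved differently. Its levels were 179, 190 and 130 CPM in WT Gas and 182, 170, 113, 139 and 173 CPM in LSD1-mKO Gas. They were 232, 270 and 234 CPM in WT Sol and 163, 195, 184, 146 and 188 CPM in LSD1-mKO Sol. The WT Sol libraries stood above all others, while LSD1-mKO Sol overlapped with Gas of both genotypes. Sol over Gas was 0.56 in WT (SE 0.200, adjusted p = 0.0639) and 0.17 in LSD1-mKO (SE 0.155, adjusted p = 0.446), neither past the threshold. The WT value depended on the libraries and the tool. It passed by DESeq2 (adjusted p = 0.0372) and without LSD1-mKO Gas replicate 3, which enters through the shared spread (0.56, adjusted p = 0.0447), but it was 0.38 without WT Gas replicate 3 (adjusted p = 0.230) and 0.32 without the 3 libraries of high ribosomal protein level (adjusted p = 0.310). In GENCODE M21 its exons overlap other genes in 164 bases, *Trmt112* on the opposite strand and *Mir6990*. Reads were counted on UCSC gene models, and whether those share the same bases was not examined.

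The make-up of the ERR family, a description of the same values, shifted from Gas to Sol. *Esrra* made up 88.6% ± 2.21 of ERR transcripts per length in WT Gas (SD, n = 3) and 56.8% ± 10.6 in WT Sol, while *Esrrg* made up 9.12% ± 1.74 and 36.1% ± 10.1. In LSD1-mKO, *Esrrg* made up 10.4% ± 3.75 in Gas and 31.9% ± 10.8 in Sol (SD, n = 5). The summed level of the 3 receptors lay between 29.3 and 49.8 CPM per kb in the Gas libraries, between 91.3 and 114 in WT Sol and between 55.1 and 92.3 in LSD1-mKO Sol.

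**Figure D2:**
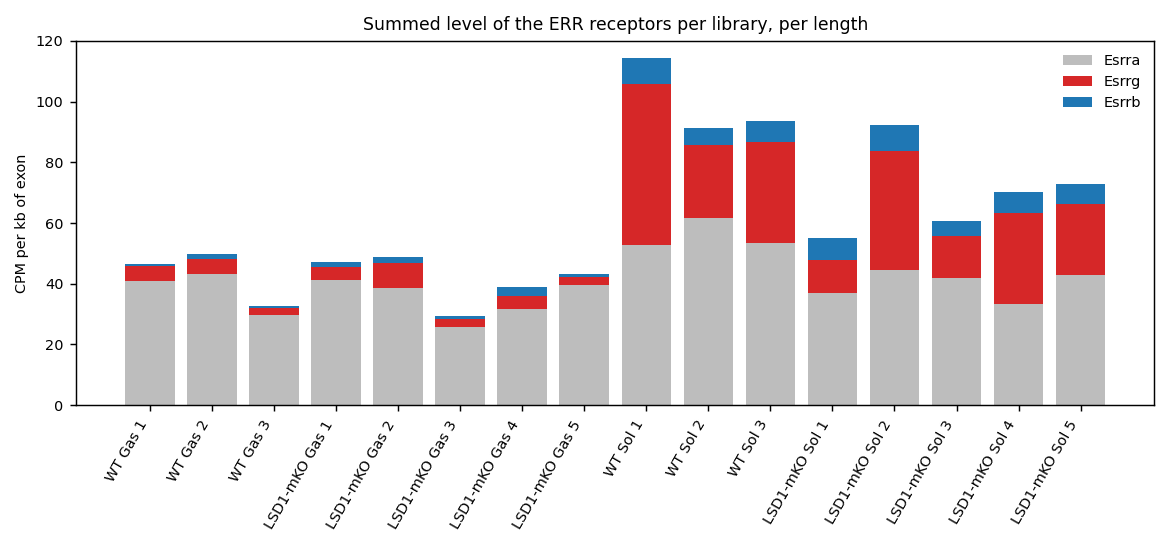
Summed level of *Esrra*, *Esrrg* and *Esrrb* in each of the 16 libraries, in CPM per kb of exon, as stacked bars that start at 0. The grey *Esrra* segment is the largest in all libraries but WT Sol replicate 1, where *Esrrg* is level with it, the red *Esrrg* segment is small in Gas and large in Sol, and the LSD1-mKO Sol bars vary from 55.1 to 92.3.

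PPARα, the receptor that turns on fatty acid oxidation genes when fatty acids are abundant, is encoded by *Ppara* (ENSMUSG00000022383, chromosome 15, 85734983 to 85802819, plus strand). *Ppara* had 41.2, 28.7 and 16.9 CPM in WT Gas and 51.6, 45.4, 26.2, 33.7 and 18.0 CPM in LSD1-mKO Gas, against 126, 113 and 112 CPM in WT Sol and 130, 109, 56.2, 93.5 and 80.0 CPM in LSD1-mKO Sol. Again no Sol library overlapped with a Gas library, although LSD1-mKO Sol replicate 3 came within a few CPM of the highest Gas library. Sol exceeded Gas by 2.01 on the log2 scale in WT (SE 0.376, adjusted p = 0.00149), or 4.03-fold, and by 1.42 in LSD1-mKO (SE 0.286, adjusted p = 0.00157), or 2.68-fold.

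*Ppard* (ENSMUSG00000002250, chromosome 17, 28232700 to 28301474, plus strand), the gene of PPARδ, a receptor that shares many target genes with PPARα in muscle, ran the other way. It had 53.9, 47.7 and 29.7 CPM in WT Gas and 42.7, 46.4, 53.9, 59.6 and 41.5 CPM in LSD1-mKO Gas. In Sol it had 35.6, 29.0 and 44.0 CPM in WT and 27.9, 28.7, 40.8, 30.6 and 35.6 CPM in LSD1-mKO. The LSD1-mKO Sol libraries were all below the LSD1-mKO Gas libraries, a difference of -0.58 on the log2 scale (SE 0.177, adjusted p = 0.0246), and in WT the muscles overlapped (-0.28, SE 0.228, adjusted p = 0.428). The LSD1-mKO call was narrow. It was lost without LSD1-mKO Gas replicate 4 or without LSD1-mKO Sol replicate 1, 2 or 4, with adjusted p from 0.0525 to 0.0593. Per length, *Ppara* made up 55.6% ± 3.85 of the transcripts of both receptors in WT Gas and 86.4% ± 2.67 in WT Sol (SD, n = 3), and 56.6% ± 10.7 and 83.7% ± 6.81 in LSD1-mKO (SD, n = 5).

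The mitochondrial transcription regulators showed no muscle difference past the threshold. *Tfam* (ENSMUSG00000003923, chromosome 10, 71225464 to 71238280, minus strand) had 61.7, 58.5 and 113 CPM in WT Gas, 47.0, 56.4, 51.0, 63.6 and 86.0 CPM in LSD1-mKO Gas, 73.8, 82.3 and 79.1 CPM in WT Sol and 44.5, 61.6, 51.9, 56.8 and 69.5 CPM in LSD1-mKO Sol. The 2 highest Gas values belong to the 2 Gas libraries of high ribosomal protein level. Sol over Gas was 0.017 in WT (SE 0.255, 95% interval -0.52 to 0.55) and -0.096 in LSD1-mKO (SE 0.198, 95% interval -0.51 to 0.32).

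*Nrf1* (ENSMUSG00000058440, chromosome 6, 30047988 to 30153458, plus strand) was the steadiest of the 9, with all 16 libraries between 12.8 and 18.3 CPM. It had 14.7, 16.6 and 13.7 CPM in WT Gas and 13.4, 12.8, 18.3, 14.7 and 15.1 CPM in LSD1-mKO Gas. In Sol it had 16.6, 14.9 and 17.4 CPM in WT and 14.5, 14.0, 16.05, 13.2 and 14.8 CPM in LSD1-mKO. No group stood apart from another. Sol over Gas was 0.12 in WT (SE 0.161, 95% interval -0.22 to 0.46) and -0.032 in LSD1-mKO (SE 0.124, 95% interval -0.29 to 0.23).

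**Figure D3:**
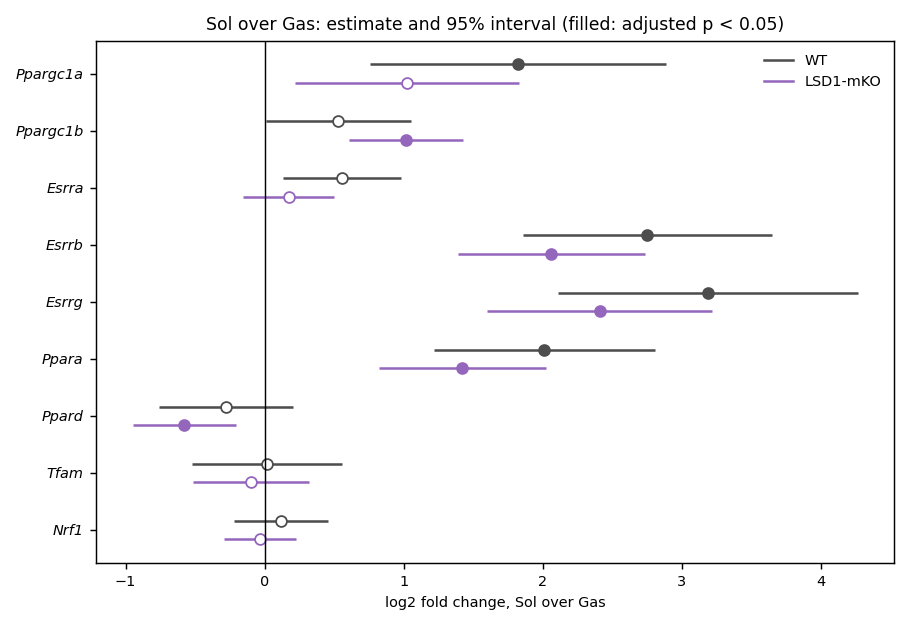
Log2 fold change of Sol over Gas (horizontal axis) for each regulator in WT (grey) and LSD1-mKO (purple). Points are estimates of the quasi-likelihood fit over 16 libraries, bars are 95% intervals, and filled points passed an adjusted p of 0.05. *Esrrg* lies farthest to the right at 3.19 in WT and 2.41 in LSD1-mKO, and *Ppard* lies left of 0 in both genotypes.

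In Gas, none of the 9 regulators differed between LSD1-mKO and WT past the threshold, where 0.0307% of 13040 genes were called (4 genes). The adjusted p ranged from 0.555 to 0.979 over the 9, and no regulator had an unadjusted p under 0.05, against 9.06% of all genes. The groups overlapped for all 9, while 6.95% of all genes did not overlap. DESeq2, which called 132 of all genes tested, and the edgeR exact test, which called 103, also called none of them. The 95% interval was -0.28 to 1.33 for *Ppargc1a* (log2 fold change 0.53), -0.37 to 1.71 for *Esrrb* (0.67) and -1.14 to 0.034 for *Ppargc1b* (-0.55), the regulator with the smallest unadjusted p (0.0622). For *Esrra* (-0.097, interval -0.58 to 0.39) and *Nrf1* (-0.014, interval -0.40 to 0.37) the intervals were narrower. Several Gas estimates moved without WT Gas replicate 3, the library of highest ribosomal protein level. *Ppargc1b* went from -0.55 to -0.27, *Tfam* from -0.35 to 0.023, *Esrrb* from 0.67 to 0.40, *Ppara* from 0.27 to 0.016, *Esrrg* from 0.13 to -0.13 and *Ppard* from 0.16 to -0.048. For *Esrrb* the value was 1.27 without WT Gas replicate 2 and 0.37 without LSD1-mKO Gas replicate 4.

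In Sol, too, none of the 9 passed the threshold, where 0.967% of 13342 genes were called (129 genes). All 9 estimates were below 0, with a median of -0.28 against -0.011 over all genes tested. *Esrra* and *Tfam* had the smallest p. Every LSD1-mKO Sol library had less *Esrra* (146 to 195 CPM) than every WT Sol library (232 to 270 CPM), a log2 fold change of -0.50 (SE 0.139, 95% interval -0.80 to -0.19, unadjusted p = 0.00406, adjusted p = 0.117). The same held for *Tfam*, with 44.5 to 69.5 CPM in LSD1-mKO and 73.8 to 82.3 CPM in WT, a log2 fold change of -0.48 (SE 0.147, 95% interval -0.80 to -0.15, unadjusted p = 0.00763, adjusted p = 0.153). These are the 2 of 9 regulators whose genotypes did not overlap in Sol, and 10.8% of all genes did not overlap either. DESeq2 placed *Esrra* past the threshold (adjusted p = 0.0196) and *Tfam* not (adjusted p = 0.0776). Over all genes DESeq2 called 605 of 13342 in Sol, more than the 129 of the quasi-likelihood test.

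*Esrrg* had the largest estimate in Sol, -0.66, but also a large error (SE 0.381, adjusted p = 0.444), and LSD1-mKO replicates 2 and 4 at 243 and 187 CPM lay inside the WT range while replicate 1 at 67.3 CPM was far below it. The estimate was -0.30 without WT Sol replicate 1 and -0.93 without LSD1-mKO Sol replicate 2. The estimates for *Ppara* (-0.33, SE 0.223) and *Ppargc1a* (-0.28, SE 0.427) likewise had intervals that included 0. *Nrf1* (-0.18, SE 0.128), *Ppard* (-0.16, SE 0.169), *Ppargc1b* (-0.081, SE 0.146) and *Esrrb* (-0.044, SE 0.175) were the closest to 0.

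**Figure D4:**
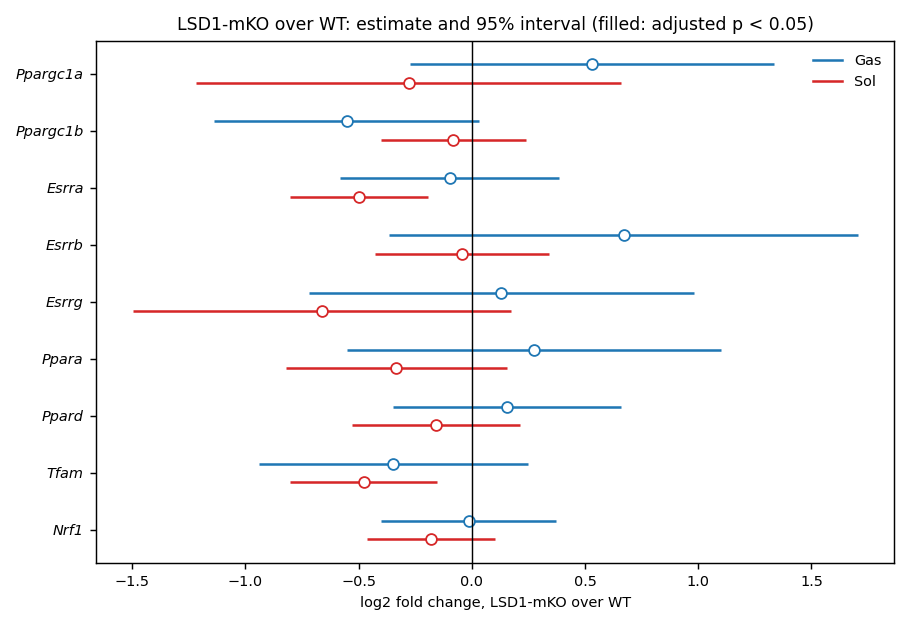
Log2 fold change of LSD1-mKO over WT (horizontal axis) for each regulator in Gas (blue) and Sol (red), with 95% intervals of the quasi-likelihood fits within each muscle. All points are open because none passed an adjusted p of 0.05. In Sol the points lie left of 0, and the intervals of *Esrra* and *Tfam* do not reach 0.

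An interaction term in the fit of all 16 libraries tested whether the genotype difference itself depended on the muscle. By the quasi-likelihood test 0% of 13749 genes passed, and for each of the 9 regulators the adjusted p was 0.987. The unadjusted p was under 0.05 for 671 genes and none of the 9, and DESeq2 called 21 genes and none of the 9. The interaction estimate was below 0 for 8 of 9, from -0.79 for *Ppargc1a* (SE 0.620) to -0.11 for *Tfam* (SE 0.323), and 0.49 for *Ppargc1b* (SE 0.312). It is built from the same libraries as the comparisons within each muscle and adds no independent evidence to them.

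The genes around the regulators were followed in 4 lists, of which the ERR and PPAR target lists share *Acadm* and *Fabp3*. Of 27 partners of PGC-1 and the ERRs (upstream kinases, corepressors, dimerization partners), all were tested and none was called between the genotypes in either muscle by the quasi-likelihood test. At an unadjusted p under 0.05 there were 1 in Gas and 6 in Sol, against 9.06% and 15.5% of all genes. DESeq2 called none in Gas and *Lpin1* and *Prkag3* in Sol. Its background for all 4 lists was 132 of 13040 genes called in Gas and 605 of 13342 in Sol. Between the muscles, 3 were higher and 3 lower in Sol in WT, and 6 higher and 5 lower in LSD1-mKO. The background for this and the other 3 lists was 8.75% of all genes higher and 8.25% lower in WT. In LSD1-mKO it was 12.9% and 11.6%. *Perm1*, a muscle regulator induced by PGC-1 and ERRs, was higher in Sol, with 514 ± 104 against 139 ± 42.2 CPM in WT (SD, n = 3; log2 fold change 1.88, adjusted p = 0.000710) and 413 ± 109 against 171 ± 52.6 CPM in LSD1-mKO (SD, n = 5; 1.27, adjusted p = 0.00108). *Prkag3*, the AMPK subunit of fast glycolytic fibers, was lower in Sol, by a log2 fold change of -3.40 in WT (adjusted p = 3.46e-06) and -1.96 in LSD1-mKO (adjusted p = 1.30e-05). *Rxrg*, a dimerization partner of the PPARs, was also lower in Sol, by -1.63 in WT (adjusted p = 0.00258) and -1.46 in LSD1-mKO (adjusted p = 0.000448). *Sirt3*, a mitochondrial deacetylase, was called higher in WT (0.85, adjusted p = 0.00820), and *Lpin1*, a lipid phosphatase that also acts as a PGC-1α partner, lower in LSD1-mKO (-1.39, adjusted p = 1.65e-05). The smallest p between genotypes were those of *Rxrg* (-0.74, adjusted p = 0.523) and *Mef2c* (-0.51, adjusted p = 0.555) in Gas, and of *Lpin1* (-0.86, adjusted p = 0.0558) and *Prkag3* (0.85, adjusted p = 0.0642) in Sol.

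Of 20 targets of the ERRs and PGC-1, 10 were higher and 2 lower in Sol than in Gas in WT, and 8 higher and 2 lower in LSD1-mKO. *Idh2*, a mitochondrial isocitrate dehydrogenase, had 1699 ± 304 CPM in WT Sol and 298 ± 13.2 CPM in WT Gas (SD, n = 3; log2 fold change 2.51, adjusted p = 1.61e-06), and it had 1276 ± 232 and 451 ± 47.1 CPM in LSD1-mKO (SD, n = 5; adjusted p = 4.78e-06). *Ldhb*, the lactate dehydrogenase subunit of oxidative fibers, was higher by 2.29 in WT (adjusted p = 1.04e-05) and 1.71 in LSD1-mKO (adjusted p = 5.88e-06), and *Fabp3*, a fatty acid carrier, by 1.503 (adjusted p = 0.000511) and 1.34 (adjusted p = 7.29e-05). The lower targets in both genotypes were *Smox*, spermine oxidase, at -3.85 in WT (adjusted p = 6.59e-08) and -2.93 in LSD1-mKO (adjusted p = 2.70e-08), and *Dhrs7c*, an enzyme of the sarcoplasmic reticulum, at -1.58 (adjusted p = 0.0419) and -1.47 (adjusted p = 0.0117). *Dhrs7c* is named after its values were seen. The list holds genes that the study itself followed in these muscles, and it is not independent evidence of a direction. No target was called between the genotypes by the quasi-likelihood test, where 5 targets in Gas and 9 in Sol had an unadjusted p under 0.05, against 9.06% and 15.5% of all genes. DESeq2 called *Smox* and *Idh2* in Gas, *Ankrd1*, *Acadm* and *Mb* in Sol, and *Idh2* for the interaction. Over all genes its calls were 132 in Gas, 605 in Sol and 21 for the interaction. The median was -0.28 in Gas, with 13 of 20 below 0, and -0.35 in Sol, with 18 of 20 below 0. Without WT Gas replicate 3 the Gas median was -0.032, with 11 of 20 below 0. The targets with the smallest p were *Smox* (-1.14, adjusted p = 0.180) and *Idh2* (0.60, adjusted p = 0.418) in Gas, and *Ankrd1* (1.496, adjusted p = 0.0641) and *Acadm* (-0.50, adjusted p = 0.156) in Sol. Without WT Gas replicate 3 and LSD1-mKO Gas replicate 5, the Gas libraries of high ribosomal protein level, the Gas median was -0.18. Without WT Sol replicate 2, the Sol library of high ribosomal protein level, the Sol median was -0.21.

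PPAR targets, the genes of fatty acid uptake, storage and oxidation, were mostly higher in Sol. Of 23 genes 22 were tested (*Fgf21* had too few reads), and in WT 15 were higher in Sol and none lower, with a median log2 fold change of 1.15 against -0.013 over all genes. In LSD1-mKO 13 were higher and 1 lower, with a median of 0.64. *Hadhb*, a subunit of the enzyme complex of long-chain fatty acid oxidation, had 456 ± 79.8 CPM in WT Sol and 140 ± 8.22 CPM in WT Gas (SD, n = 3; 1.71, adjusted p = 3.29e-05), and it was 1.13 higher in LSD1-mKO (adjusted p = 6.72e-05). In WT the lipid droplet protein *Plin5* (1.55, adjusted p = 5.16e-05) and the carnitine shuttle genes *Cpt2* (1.21, adjusted p = 8.86e-05) and *Slc25a20* (1.09, adjusted p = 0.000124) followed. In LSD1-mKO *Plin2* (1.26, adjusted p = 6.72e-05), *Fabp3* and *Lpl*, a lipase that takes up circulating fat (1.55, adjusted p = 9.40e-05), had the smallest adjusted p beside *Hadhb*. The gene called lower in LSD1-mKO Sol was *Ucp3*, a mitochondrial carrier (-0.98, adjusted p = 0.0223), named after its values were seen.

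Between the genotypes no PPAR target was called by the quasi-likelihood test, where 3 in Gas and 9 in Sol had an unadjusted p under 0.05, against the same shares of all genes. In Gas 15 of 22 estimates were above 0 (median 0.16, and 0.098 without WT Gas replicate 3), and in Sol 20 of 22 were below 0 (median -0.41). Without WT Sol replicate 2, the Sol library of high ribosomal protein level, the Sol median was -0.32 with 18 of 22 below 0. The mean level of the 22 genes was 8.08, 8.20 and 8.21 log2 CPM in the WT Sol libraries and 7.53, 7.74, 7.96, 7.76 and 7.85 in the LSD1-mKO Sol libraries. In Gas it was 7.23, 7.13 and 6.97 in WT and 7.35, 7.39, 7.42, 7.08 and 7.12 in LSD1-mKO. The Sol groups thus did not overlap in this mean and the Gas groups did. The mean of the list of mitochondrial DNA expression, described next, did not overlap in Sol either. It was 4.58 to 4.63 log2 CPM in WT and 4.33 to 4.53 in LSD1-mKO. The means of the partners and of the ERR and PGC-1 targets overlapped in Sol. How often lists of other genes separate in this way was not examined. *Lpl* (-0.93, adjusted p = 0.0890) and *Hadhb* (-0.65, adjusted p = 0.129) had the smallest p in Sol, and in Gas *Slc27a1* (0.55, adjusted p = 0.526) was among those of smallest p. The interaction was below 0 for all 22 genes tested, with a median of -0.50 and none past the threshold, *Slc27a1* (-1.14, adjusted p = 0.611) and *Acadl* (-0.77, adjusted p = 0.667) having the smallest p. DESeq2 called 4 of the 22 lower in LSD1-mKO Sol (*Lpl*, *Acadm*, *Hadhb* and *Acot2*) and none in Gas or for the interaction. Over all genes it called 605 of 13342 in Sol in either direction, 132 in Gas and 21 for the interaction.

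The list of mitochondrial DNA expression, to which *Tfam* belongs by function, held 19 genes, of which 3 were higher and 1 lower in Sol in WT and 1 higher and 3 lower in LSD1-mKO. Of all genes, 8.75% were higher and 8.25% lower in WT, and 12.9% and 11.6% in LSD1-mKO. *Lrpprc*, which stabilizes mitochondrial mRNA, was higher in both genotypes (0.94 in WT, adjusted p = 0.000507, and 0.42 in LSD1-mKO, adjusted p = 0.0147), and *Mgme1*, a mitochondrial exonuclease, lower in both (-0.57, adjusted p = 0.0228, and -1.10, adjusted p = 9.54e-06). *Gabpa*, the DNA-binding subunit of GABP (0.82, adjusted p = 0.00639), and *Mterf2* (1.02, adjusted p = 0.0384) were called in WT, and *Polrmt*, the mitochondrial RNA polymerase (-0.59, adjusted p = 0.0143), and *Top1mt* (-0.53, adjusted p = 0.0247) in LSD1-mKO. No gene of this list was called between the genotypes by the quasi-likelihood test or by DESeq2. The median was 0.17 in Gas and -0.23 in Sol, with 16 of 19 below 0 in Sol. The smallest p were those of *Tfb1m* (0.42, adjusted p = 0.550) and *Slirp* (-0.61, adjusted p = 0.555) in Gas and of *Gabpb1* (-0.33, adjusted p = 0.273) and *Mgme1* (-0.37, adjusted p = 0.302) in Sol. In the other 3 lists, too, no gene passed for the interaction by the quasi-likelihood test. The estimates of smallest p were *Idh2* (-1.01, adjusted p = 0.565) and *Ankrd1* (2.89, adjusted p = 0.668) among the ERR targets, *Prkag3* (1.44, adjusted p = 0.580) and *Lpin1* (-0.83, adjusted p = 0.802) among the partners, and *Lrpprc* (-0.52, adjusted p = 0.942) and *Mgme1* (-0.52, adjusted p = 0.953) here.

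**Figure D5:**
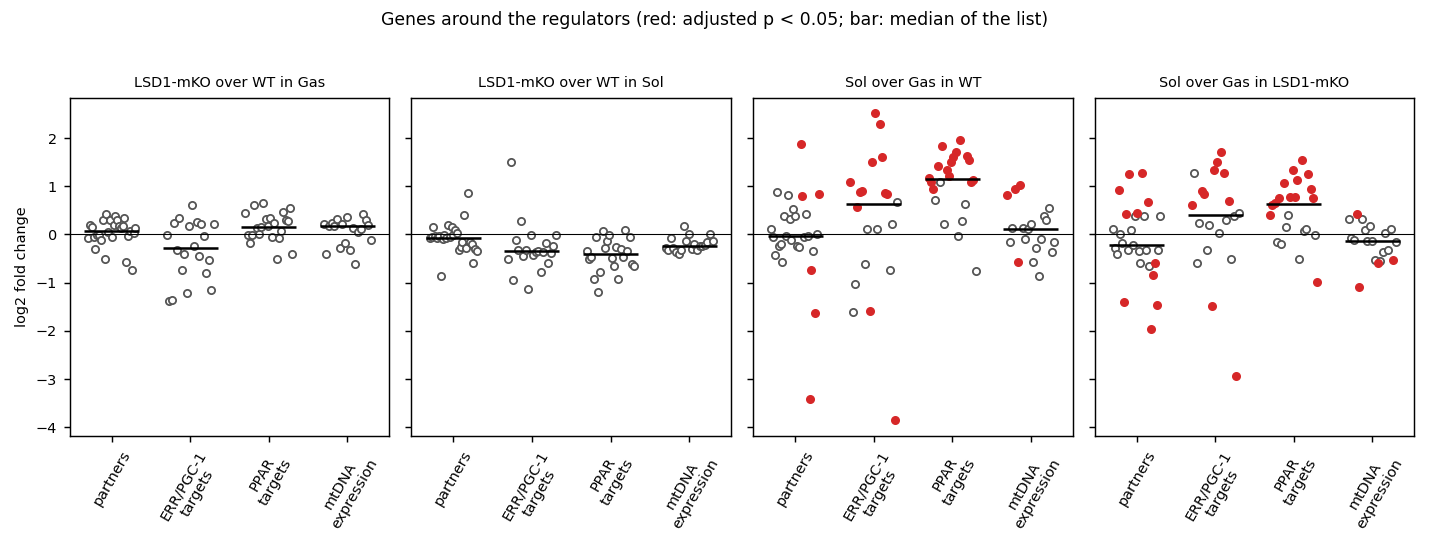
Log2 fold change (vertical axis) of each tested gene of the 4 lists in the 4 comparisons between groups. Red points passed an adjusted p of 0.05 over all genes tested, open points did not, and the bar is the median of the list. Both genotype panels hold no red point, whereas in the muscle panels most PPAR targets are red and above 0.

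Several measures moved with these comparisons. Fiber markers differed strongly between the muscles: all 5 slow fiber markers were called higher in Sol in both genotypes (medians 4.26 in WT and 4.02 in LSD1-mKO), and of the 5 markers of fast IIB and IIX fibers 3 were called lower in WT and 4 in LSD1-mKO. *Myh2*, of fast IIA fibers, was called higher in Sol in both. The part of fiber make-up in the levels of the regulators was not tested. In Sol the slow fiber sum was 20557 to 22572 CPM in WT and 15488 to 20963 CPM in LSD1-mKO, the fast IIB and IIX sum 35086 to 45001 CPM in WT and 20113 to 39706 CPM in LSD1-mKO, and *Myh2* 10319 to 15221 CPM in WT and 3363 to 15668 CPM in LSD1-mKO, so all 3 overlapped between the genotypes. Single genes within the fast IIB and IIX sum moved apart, with 4 of 5 estimates below 0. *Myh1* did not overlap, with 6112 to 8499 CPM in WT and 563 to 5235 CPM in LSD1-mKO (log2 fold change -1.43, adjusted p = 0.238). *Myh4* went the other way (2.60, adjusted p = 0.134), with 28.0 to 143 CPM in WT and 103 to 1144 CPM in LSD1-mKO.

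The 5 general skeletal muscle markers summed to 52643 to 93250 CPM over all libraries. Markers of other cells summed to 40.2 to 139 CPM for white adipocytes, 5.08 to 23.4 CPM for brown adipocytes, 242 to 533 CPM for endothelial cells, 86.3 to 373 CPM for macrophages, 9.39 to 140 CPM for neutrophils and blood, 93.8 to 424 CPM for Schwann cells in Gas and 74.5 to 161 CPM in Sol, and 176 to 334 CPM for smooth muscle. *Ucp1*, which defines brown adipocytes, and *Hbb-bt*, of red blood cells, were at or near 0 in all libraries, but other genes of their lists were detected. *Alas2*, of the neutrophil and blood list, had 8.66 to 28.1 CPM. *Cidea*, of the brown adipocyte list, had group means from 2.69 CPM in WT Gas to 13.4 CPM in LSD1-mKO Sol. The lack of *Hbb-bt* reads therefore does not show that blood was absent. Fibroblast markers summed to 1288 to 1964 CPM in WT Gas and 856 to 1031 CPM in LSD1-mKO Gas, without overlap, and to 898 to 1391 CPM and 456 to 1313 CPM in Sol. Single markers also separated in Sol. *Cd68* had 2.60 to 3.15 CPM in WT and 6.35 to 24.6 CPM in LSD1-mKO, although the macrophage sums overlapped. *Des* had 5479 to 7448 and 8859 to 11538 CPM. *Mb* was lower in LSD1-mKO by a narrow gap, with 9509 to 14032 CPM in WT and 4437 to 9500 CPM in LSD1-mKO. No marker of the 12 lists was called between the genotypes by the quasi-likelihood test (an unadjusted p under 0.05 was found for 10 of 50 in Gas and 11 of 49 in Sol, against 9.06% and 15.5% of all genes). DESeq2 called 0 in Gas and 3 in Sol (*Mb*, *Des* and *Cd68*), and the exact test called *Myh4* in Sol in place of *Mb*. Over all genes DESeq2 called 132 in Gas and 605 in Sol, and the exact test 103 and 558. The part of these cells in the regulators' levels was not tested.

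The ribosomal protein level moved with several regulators inside the groups. In each of the 3 libraries where it stood high, *Tfam* and *Ppargc1b* had the highest level of their group and *Ppard* the lowest. *Ppargc1a* and *Ppara* were the lowest of their group in both such Gas libraries. When that level entered the fit as a covariate, *Ppargc1b* (0.70, SE 0.190, adjusted p = 0.0137) and *Esrra* (0.55, SE 0.186, adjusted p = 0.0423) also passed the threshold for Sol over Gas in WT, *Ppargc1a* passed it in LSD1-mKO (1.13, SE 0.385, adjusted p = 0.0275), and no regulator passed it between the genotypes (adjusted p = 0.0510 for *Esrra* in Sol).

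Genes whose levels ran most alike with each regulator were found by Pearson correlation of log2 CPM over the 16 libraries after the mean of each group was subtracted. They share the depth and quality differences of the libraries, and r is given as a description. For *Ppargc1a* these were *Rab30* (r = 0.929), *Fam124b* (0.907) and *Fam101b* (0.905), and for *Ppargc1b* they were *Gm11665* (0.918), *Dnph1* (0.914) and *Sub1* (0.899). *Esrra* ran with *2410127L17Rik* (0.952), *Msto1* (0.913) and *Ppm1j* (0.905), *Esrrb* with *Cds1* (0.898), *Zfp961* (0.864) and *Wbscr17* (0.843), and *Esrrg* with *Homer1* (0.940), *Herc3* (0.923) and *Lmo7* (0.903). For *Ppara* the nearest were *Hectd2* (0.938), *Hspa12a* (0.933) and *Tbc1d32* (0.903), and for *Ppard* *Ppp1r13b* (0.920), *Zer1* (0.919) and *Thtpa* (0.918). *Tfam* had the closest neighbors, *Ppp3ca* (0.972), *Strap* (0.954) and *Sar1b* (0.950), and *Nrf1* ran with *Brap* (0.930), *Ccdc71* (0.925) and *Wdr5* (0.910). No regulator was among the 3 nearest genes of another.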

How the data were processed

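Total muscle RNA was poly(A)-selected and sequenced as 75-bp single-end reads. Per the labels and file headers, the authors aligned reads to mm10 with STAR and deposited raw counts per gene made with featureCounts 1.5.2 on UCSC gene models, without a strand option, so reads shared by genes or by genome positions were left out. The authors' tables of fold changes and p-values were not used.

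Counts were analysed with edgeR 4.0.16 in R 4.3.3. Genes were kept by filterByExpr (minimum count 10), libraries scaled by TMM, and groups compared by the two-sided quasi-likelihood F-test with Benjamini-Hochberg adjustment over all genes tested. A gene was called at an adjusted p under 0.05. Genotypes were compared within each muscle, and muscles and the interaction in a fit of 16 libraries. SEs were derived from each estimate and its F value. p-values measure the spread between libraries, for which the labels state no more than a number. Alternatives were RLE scaling, no filter, DESeq2 1.42.0, the edgeR exact test, 1 fit of all libraries, a replicate block, the ribosomal protein level as a covariate, and leaving out libraries. The scripts were tested on simulated counts. Intervals and floors cover counting error or library spread only.

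Same-numbered Gas and Sol libraries deviated together in all 5 LSD1-mKO pairs (r from 0.243 to 0.390) but not in WT (r from -0.577 to 0.156), and the labels do not say whether they come from the same mouse. The blocked value is therefore given beside the LSD1-mKO muscle call that it changes.

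Members and gene lists were chosen with earlier results of these data known. The rule named all 9 regulators, *Kdm1a*, and from each list up to 4 called genes of the smallest adjusted p, or the 2 of the smallest p where none was called. A gene that this rule names among the PPAR targets is not reported here. Exon lengths come from GENCODE M21 (GRCm38) and promoters from RefSeq (GRCm38.p6). *Twnk* is listed as *Peo1*.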

Additional observations from a re-analysis of the deposited data

How the results depend on the processing

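The number of regulators called between the genotypes was 0 in Gas under all alternatives, and in Sol 0 under all but DESeq2, which called 1 (*Esrra*). It was 0 for the interaction under all alternatives. For Sol over Gas it was 4 in WT (3 to 5 with single libraries left out) and 5 in LSD1-mKO (4 to 6). Of 306 estimates for single regulators under alternatives that kept or dropped fixed sets of libraries, 290 kept their direction and side of the threshold. The ribosomal protein covariate turned the Gas genotype estimates of *Esrrg* (-0.18), *Ppara* (-0.029) and *Ppard* (-0.036), and no filter that of *Nrf1* (0.0054). Without WT Sol replicate 2, the Sol library of high ribosomal protein level, *Ppargc1b* between genotypes in Sol became 0.016. Without the 3 libraries of high ribosomal protein level, *Tfam* for Sol over Gas in LSD1-mKO became 0.052. The cause was not tested.

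With single libraries left out, estimates of either sign were found between genotypes in Gas for *Esrra* (-0.24 to 0.030), *Esrrg* (-0.20 to 0.30), *Ppard* (-0.048 to 0.33), *Tfam* (-0.51 to 0.023) and *Nrf1* (-0.095 to 0.090), in Sol for *Ppargc1a* (-0.57 to 0.019), *Ppargc1b* (-0.20 to 0.016), *Esrrb* (-0.17 to 0.11) and *Ppard* (-0.28 to 0.017), for the interaction for *Tfam* (-0.48 to 0.029), and for Sol over Gas for *Tfam* in WT (-0.12 to 0.36) and LSD1-mKO (-0.18 to 0.060) and for *Nrf1* in LSD1-mKO (-0.090 to 0.034).

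In the muscle and interaction fits the replicate block joined the same-numbered Gas and Sol libraries of a genotype. In the genotype fits within a muscle it joined WT and LSD1-mKO libraries of the same number, which come from different mice. The labels give no ground for that second pairing. LSD1-mKO replicates 4 and 5 had no WT partner there and did not inform the difference. With the replicate block, the numbers of regulators called were 0 in Gas, 0 in Sol, 0 for the interaction, 4 for Sol over Gas in WT and 6 in LSD1-mKO. The block turned *Ppargc1a* between genotypes in Sol to 0.049 (SE 0.155) and changed no other direction. Every LSD1-mKO library correlated best with its own number in the other muscle (5 of 5 in each direction) and no WT library did, which is a hint from the data and not from the design. With the covariate the median of the ERR and PGC-1 targets between genotypes in Gas was -0.047. Over all genes, the 4 calls in Gas became 132 by DESeq2, 103 by the exact test, 62 in a fit of 16 libraries and 10 without a filter (1 to 7 with single libraries left out). The 129 calls in Sol became 605, 558, 108 and 336, 412 with the block, 298 with the covariate and 23 without WT Sol replicate 2, the Sol library of high ribosomal protein level. With single libraries left out they ranged from 11 (without WT Sol replicate 3) to 228. The interaction had 21 by DESeq2 and 1 with the block or without LSD1-mKO Sol replicate 3. For Sol over Gas, 2337 calls in WT ranged from 1132 (without WT Sol replicate 1) to 3141, and 3367 in LSD1-mKO from 2618 to 5727 (with the covariate). Of the list genes, none of which passed between the genotypes by the quasi-likelihood test as used in the report, some passed under its alternatives. The block called *Dhrs7c*, *Asb15* and *Acot2* lower and *Ankrd1* higher in Sol. No filter called *Ankrd1*, *Prkag3*, *Lpin1* and *Lpl* there, the covariate *Ankrd1*, *Prkag3* and *Lpin1*, and the fit of 16 libraries *Lpin1*. *Smox* was called lower in Gas in the fit of 16 libraries and without the Gas libraries of high ribosomal protein level. With single libraries left out, 1 gene of a list was called without WT Gas replicate 3, WT Sol replicate 1 or LSD1-mKO Sol replicate 5. The lowest count of a regulator was 30 reads.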

Other observations

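After the values were seen, *Ppargc1a* and *Ppara* were found to share an order over the replicate numbers. In each of the 4 groups the libraries numbered 1 and 2 held the 2 highest levels of both genes, for *Ppargc1a* 134 and 103 CPM against 56.3 CPM in WT Sol and 143 and 122 CPM against 37.7 to 52.5 CPM in LSD1-mKO Sol. For *Ppara* the order in WT Sol rested on nearly equal values, 112.57 CPM in replicate 2 and 112.47 CPM in replicate 3. Of 13749 genes tested, 93 (0.676%) had this order in all 4 groups, and none of the other 7 regulators did. The labels do not say what the number stands for, and whether it marks a litter, a day or a time of day was not tested.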
